A study of Mus musculus with 24 samples.

Results

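The carnitine shuttle of mouse islet cells was described by 10 genes: the carnitine synthesis genes Tmlhe, Aldh9a1 and Bbox1, the carnitine importer Slc22a5, and Cpt1a, Cpt1c, Slc25a20, Cpt2, Crat and Crot, which move acyl groups on and off carnitine and across membranes. They were picked by symbol. Of the 41549 genes in the deposited table, 9 were members of this set. Tmlhe was not analysed here. Of the 9, 8 had enough reads for a test. Dispersed islet cells of wild type mice (C57BL/6NRj of 12 to 14 weeks in the study's methods) were transfected with 50 pmol of a control LNA antisense oligonucleotide (ASO; Ctr) or of one that targets the tRNA fragment 5'tRF-Glu(CTC) (αGlu), and then kept for 48 h with 0.5 mM palmitate (PA) on BSA or with 0.75% BSA alone, in medium with 1% serum. Crossing ASO and treatment gave 4 groups (Ctr BSA and Ctr PA, and αGlu BSA with αGlu PA) of 6 stranded mRNA libraries, 3 from each of 2 batches whose nature the labels leave unstated. Per the study, a replicate of primary cells was a preparation from its own animal that supplied every group. The labels do not show which libraries share a preparation, so the tests could not match them, and p-values measure the spread between these 24 libraries, that between preparations included. By qPCR, the study reported a lower level of the tRNA fragment in mouse islet cells given the αGlu ASO. No mRNA table shows the level of the fragment, so its block could not be checked in these libraries.

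Library totals ran from 18214719 to 35001979 exon reads (median 26701201.5). The 10 beta-cell marker genes summed to between 84084 and 152138 CPM (counts scaled to equal library size) in a library, and the libraries also held RNA of acinar, ductal, immune and stromal cells. All levels below in CPM, except the limit given for Bbox1, are scaled by TMM, which aligns the bulk of the genes between libraries. A gene was called when its Benjamini-Hochberg adjusted p in edgeR's quasi-likelihood test, adjusted over all 15916 genes tested, was below 0.05. In bulk RNA, fewer cells of a type and less RNA per cell cannot be told apart.

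Long-chain fatty acids cannot cross the inner mitochondrial membrane as CoA esters. A carnitine palmitoyltransferase of the outer membrane (Cpt1a in most tissues, Cpt1b in muscle) swaps CoA for carnitine, the carrier Slc25a20 exchanges acylcarnitine for free carnitine, and Cpt2 on the inner side restores the CoA ester for β-oxidation. Malonyl-CoA inhibits the first step, and the genes of the shuttle are textbook targets of the fatty-acid-sensing PPAR nuclear receptors. Crat and Crot handle short-chain and medium-chain acyl groups, Crot in peroxisomes. In the β-cell, long-chain acyl-CoA that is not oxidised feeds lipid signals linked to insulin secretion and to lipotoxicity.

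The promoters of Aldh9a1, Slc25a20 and Cpt1a, the 3 members with the largest PA responses, are shown because PPAR and RXR dimers bind a direct repeat, AGGTCA followed by any base and AGGTCA again. The stretches come from RefSeq (GRCm38.p6), plus strand, with the transcript start as position 1 and the base before it as position -1. Capitals mark the letters found. The Aldh9a1 stretch is chr1:167349741-167349990 and holds a copy with 2 mismatches whose first base is at position -144. The Slc25a20 stretch is chr9:108661886-108662155 and holds a copy with 2 mismatches from position 7. The Cpt1a stretch is chr19:3323051-3323300 and holds 1 arm of the repeat, AGGTCA, on the minus strand from position -94. The Cpt1a stretch precedes the start of a RefSeq transcript but lies inside the gene as annotated in GENCODE, which starts at 3322334.
Aldh9a1: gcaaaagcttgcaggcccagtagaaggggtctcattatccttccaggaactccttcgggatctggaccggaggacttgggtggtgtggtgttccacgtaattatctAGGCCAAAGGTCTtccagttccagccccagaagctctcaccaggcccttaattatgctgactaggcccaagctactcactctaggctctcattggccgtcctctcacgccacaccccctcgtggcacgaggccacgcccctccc
Slc25a20: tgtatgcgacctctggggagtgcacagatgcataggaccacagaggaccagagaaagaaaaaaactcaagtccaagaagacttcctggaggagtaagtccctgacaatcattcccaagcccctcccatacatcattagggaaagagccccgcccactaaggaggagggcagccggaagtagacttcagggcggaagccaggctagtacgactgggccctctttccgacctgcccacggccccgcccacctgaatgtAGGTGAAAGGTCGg
Cpt1a: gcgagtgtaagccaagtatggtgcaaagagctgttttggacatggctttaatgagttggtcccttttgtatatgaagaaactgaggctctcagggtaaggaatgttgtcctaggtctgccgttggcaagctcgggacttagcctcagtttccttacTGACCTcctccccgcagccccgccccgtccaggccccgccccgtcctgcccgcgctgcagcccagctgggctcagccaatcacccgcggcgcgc
Windows of 300 bases (250 before the start) were found for 8 members. With up to 2 mismatches on either strand, a tolerance chosen after the sequences were seen, 2 of the 8 held the repeat, against 3.86% of all 32851 mouse promoter windows. With up to 1 mismatch 0 of the 8 held it, against 0.554% of all windows, and with up to 3 mismatches 3 of the 8 did (Bbox1 being the third), against 24.6%. None of the 8 held it without a mismatch, against 0.0396% of all windows. The single arm was in 2 of the 8, Cpt1a and Cpt1c, against 16.3% of all windows, and a match of the repeat can contain a match of the arm. A match describes letters, not a binding site.

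Per length of transcript (deposited TPM), the shuttle genes lay in a different order with and without PA. In Ctr BSA, Cpt2 had the highest level (54.3 ± 6.80 TPM, SD, n = 6), followed by Aldh9a1 (38.3 ± 8.004), Crot (21.8 ± 5.42), Cpt1a (12.8 ± 2.73), Cpt1c (11.8 ± 1.37), Crat (9.96 ± 1.27), Slc22a5 (9.67 ± 1.25) and Slc25a20 (6.25 ± 0.371). The ranges of neighbours in that order overlapped, except for Slc22a5 and Slc25a20. In Ctr PA, Aldh9a1 stood first (104 ± 12.4 TPM), then Cpt2 (80.9 ± 4.93), Cpt1a (59.7 ± 4.39), Crot (24.6 ± 2.44), Slc25a20 (17.97 ± 2.07) and Slc22a5 (11.3 ± 1.41), and no 2 neighbours among these overlapped. Crat (10.3 ± 1.11) and Cpt1c (10.3 ± 2.21) came last and overlapped with Slc22a5. Slc25a20, the gene with the lowest level of the 8 in BSA, thus stood above Slc22a5, Crat and Cpt1c in PA. αGlu PA gave 108 ± 12.2 TPM for Aldh9a1, 84.7 ± 3.50 for Cpt2, 61.4 ± 7.16 for Cpt1a and 18.1 ± 0.989 for Slc25a20.

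To ask what PA does to the shuttle, PA was compared with BSA in Ctr cells and, separately, in αGlu cells. Cpt1a, Slc25a20, Aldh9a1 and Cpt2 rose in both, and Slc22a5, Crat, Crot and Cpt1c were not called. So 4 of the 8 tested members were called higher and 0 lower in Ctr cells, where 15.5% of all genes tested were called higher and 14.5% lower. In αGlu cells the same 4 were called higher and 0 lower, against 14.4% of all genes higher and 14.2% lower. The median log2 fold change over the 8 was 0.34 in Ctr cells and 0.34 in αGlu cells, beside 0.0074 and 0.0055 over all genes. For each of the 4 called genes, all PA libraries lay above all BSA libraries, a separation upwards seen in 2.97% of all genes in Ctr cells and 4.17% in αGlu cells. Ranked by p, Aldh9a1 and Cpt1a were the genes with the smallest and second smallest p of the 15916 in each comparison.

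**Figure D1:**
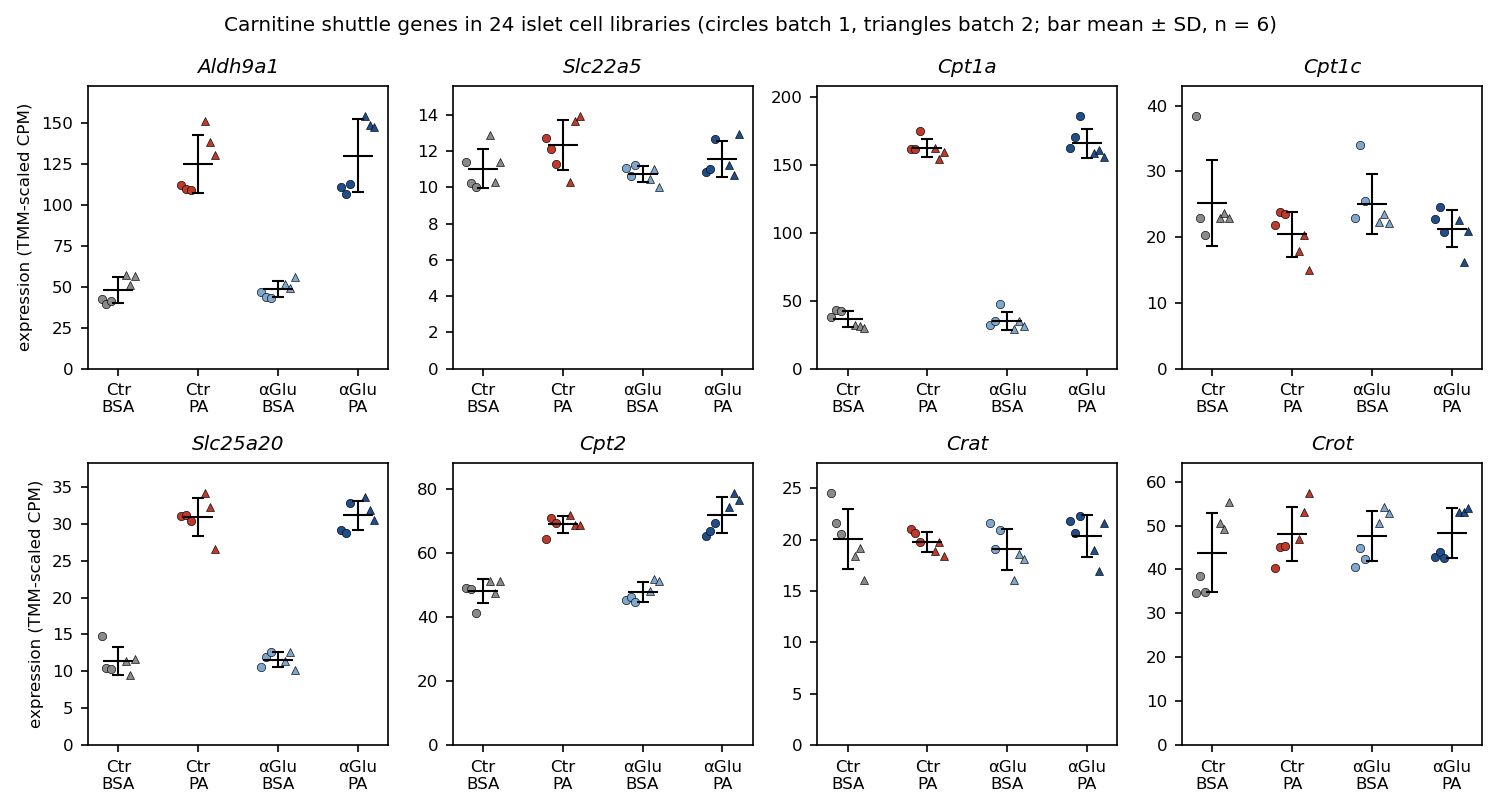
Expression (CPM scaled by TMM, linear axis from 0) of the 8 tested members in each of the 24 libraries, by group, with circles for batch 1, triangles for batch 2, and bars for the mean ± SD of 6 libraries. PA libraries lie above BSA libraries for Aldh9a1, Cpt1a, Slc25a20 and Cpt2, while the groups overlap for Slc22a5, Cpt1c, Crat and Crot.

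Aldh9a1 (ENSMUSG00000026687; chromosome 1, 167349991 to 167368532, plus strand, GRCm38) encodes the aldehyde dehydrogenase that makes γ-butyrobetaine, the last intermediate of carnitine synthesis. In Ctr BSA its batch 1 libraries had 39.3, 41.0 and 42.5 CPM and its batch 2 libraries 51.1, 56.6 and 57.4 CPM. In Ctr PA batch 1 had 109, 109.6 and 112 CPM and batch 2 131, 138 and 152 CPM. The PA libraries lay far above the BSA libraries, and within each treatment batch 2 lay above batch 1. The log2 fold change was 1.39 (standard error 0.0505; 95% interval 1.28 to 1.49; adjusted p = 8.72e-16, edgeR), a 2.62-fold rise. In αGlu cells the level went from 43.2 to 55.6 CPM (median 48.1) in BSA to 107 to 154 CPM (median 130.1) in PA, again without overlap. The log2 fold change there was 1.41 (95% interval 1.31 to 1.52; adjusted p = 4.25e-16, edgeR).

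Bbox1 (ENSMUSG00000041660; chromosome 2, 110262697 to 110314560, minus strand), γ-butyrobetaine hydroxylase, carries out the last step of carnitine synthesis. It had 1 read in all 24 libraries together, in a Ctr PA library, and was at 0 in the other 23. A count of 0 allows a level of up to 3 reads, which is 0.0857 to 0.165 CPM of a library's total, without TMM scaling. Of the carnitine synthesis genes in the set, Aldh9a1 was therefore the only one tested. Its mRNA level does not measure carnitine synthesis itself. Slc22a5 (ENSMUSG00000018900; chromosome 11, 53864542 to 53891660, minus strand), the sodium-dependent plasma membrane carnitine importer, ran from 10.04 to 12.9 CPM (median 10.8) in Ctr BSA and from 10.3 to 13.9 CPM (median 12.4) in Ctr PA. The groups overlapped over most of their range, and the log2 fold change was 0.16 (95% interval -0.01 to 0.33; adjusted p = 0.139, edgeR). In αGlu cells it was 0.10 (95% interval -0.06 to 0.27; adjusted p = 0.366, edgeR). The Ctr value passed the threshold when the library S15 of Ctr PA was left out (log2 fold change 0.21, adjusted p = 0.0442, edgeR).

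Cpt1a (ENSMUSG00000024900; chromosome 19, 3322334 to 3385733, plus strand), the malonyl-CoA-sensitive entry enzyme, had the largest response of the set. Its Ctr BSA libraries held 29.98, 31.2, 32.02, 38.1, 42.4 and 43.3 CPM, and its Ctr PA libraries 154, 159.6, 161.6, 161.7, 162 and 175 CPM. The PA libraries lay far above the BSA libraries, and the 3 lowest BSA libraries were those of batch 2. The log2 fold change was 2.18 (standard error 0.0803; 95% interval 2.01 to 2.34; adjusted p = 8.72e-16, edgeR), a 4.53-fold rise. In αGlu cells BSA libraries ran from 29.1 to 47.6 CPM (median 33.6) and PA libraries from 156 to 186 CPM (median 162). The groups did not overlap, and the log2 fold change was 2.25 (95% interval 2.08 to 2.41; adjusted p = 4.25e-16, edgeR).

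Cpt1c (ENSMUSG00000007783; chromosome 7, 44959372 to 44974851, minus strand), a relative of Cpt1a that is enriched in brain, lies in the endoplasmic reticulum and has little transferase activity, did not follow it. It ran from 20.3 to 38.4 CPM (median 22.9) in Ctr BSA and from 14.998 to 23.8 CPM (median 21.1) in Ctr PA. The groups overlapped, and the log2 fold change was -0.30 (95% interval -0.55 to -0.05; adjusted p = 0.0606, edgeR). It passed the threshold without S5 (-0.36, adjusted p = 0.0362, edgeR) or without S9 (-0.38, adjusted p = 0.0173, edgeR), both Ctr BSA libraries, and in DESeq2 (-0.31, adjusted p = 0.0373). Without S1, the Ctr BSA library with 38.4 CPM, the value shrank to -0.18 (adjusted p = 0.215, edgeR). In αGlu cells the value was -0.23 (95% interval -0.48 to 0.02; adjusted p = 0.156, edgeR). An antisense transcript, 6530437J22Rik, shares 366 exon bases with Cpt1c on the other strand, and the sources used here do not say whether reads were counted by strand.

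Slc25a20 (ENSMUSG00000032602; chromosome 9, 108662088 to 108684641, plus strand), the carnitine-acylcarnitine carrier of the inner membrane, also rose. Ctr BSA libraries had 9.56, 10.4, 10.4, 11.4, 11.7 and 14.8 CPM, and Ctr PA libraries 26.6, 30.4, 31.0, 31.3, 32.2 and 34.2 CPM. Every PA library held well above the highest BSA library. The log2 fold change was 1.45 (standard error 0.0862; 95% interval 1.27 to 1.63; adjusted p = 2.07e-11, edgeR), a 2.73-fold rise. In αGlu cells it was 1.43 (standard error 0.0856; adjusted p = 3.27e-11, edgeR), from a median of 11.7 CPM to 31.2 CPM.

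Cpt2 (ENSMUSG00000028607; chromosome 4, 107903981 to 107923610, minus strand), which returns the acyl group to CoA in the matrix, rose by less. Ctr BSA libraries ran from 41.1 to 51.4 CPM (median 49.0) and Ctr PA libraries from 64.2 to 71.8 CPM (median 69.1). The ranges did not overlap, but the log2 fold change of 0.52 (standard error 0.0473; 95% interval 0.42 to 0.62; adjusted p = 2.66e-08, edgeR) amounted to a 1.43-fold rise. In αGlu cells, from a median of 47.2 to 71.9 CPM, it was 0.59 (standard error 0.0472; adjusted p = 4.14e-09, edgeR). The threshold of the study is a fold change above 2 with p below 0.05, read here as unadjusted and applied to the edgeR fit. Under it Cpt2 was not called in either comparison, while Cpt1a, Slc25a20 and Aldh9a1 were. That rule called 0.854% of all genes higher in Ctr cells and 0.823% in αGlu cells.

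The 2 acyltransferases for shorter chains were not called. Crat (ENSMUSG00000026853; chromosome 2, 30400471 to 30415813, minus strand), which moves acetyl and other short acyl groups, ran from 16.1 to 24.5 CPM (median 19.8) in Ctr BSA and from 18.4 to 21.003 CPM (median 19.7) in Ctr PA. The PA range lay inside the BSA range, and the log2 fold change was -0.01 (95% interval -0.15 to 0.12; adjusted p = 0.902, edgeR). In αGlu cells it was 0.10 (95% interval -0.04 to 0.23; adjusted p = 0.288, edgeR). Crat shares 411 exon bases with the antisense transcript Gm16323 and 59 with Dolpp1 on the other strand. Crot (ENSMUSG00000003623; chromosome 5, 8966033 to 8997324, minus strand), the peroxisomal carnitine octanoyltransferase, ran from 34.7 to 55.4 CPM (median 43.8) in Ctr BSA and from 40.4 to 57.5 CPM (median 46.2) in Ctr PA. The groups overlapped, with a log2 fold change of 0.15 (95% interval 0.03 to 0.26; adjusted p = 0.0554, edgeR). It passed the threshold without S11 (0.16, adjusted p = 0.0496), S15 (0.19, adjusted p = 0.0129) or S21 (0.19, adjusted p = 0.0132), all by edgeR. In αGlu cells the value was 0.02 (95% interval -0.10 to 0.14; adjusted p = 0.814, edgeR). Crot shares 166 exon bases with Gm37153 on the other strand and 39 with Gm27941 on its own.

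**Figure D2:**
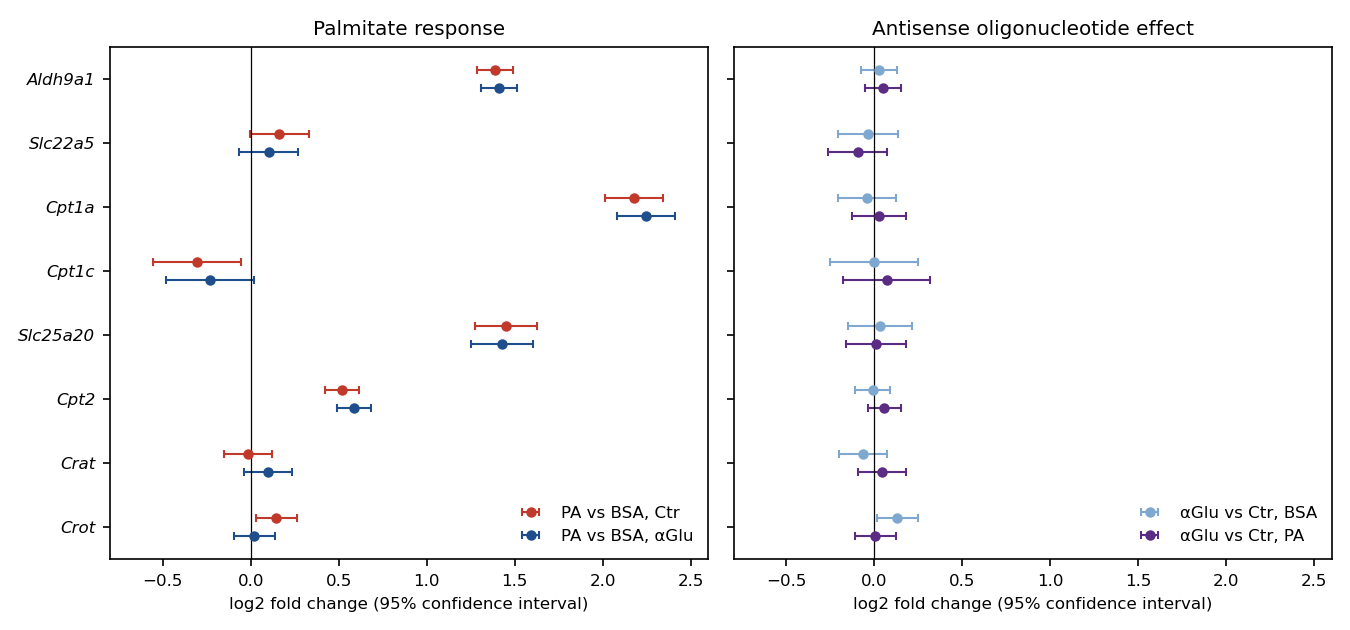
Log2 fold changes with 95% confidence intervals (edgeR, all 24 libraries in one fit) of the 8 tested members, for PA against BSA in Ctr and αGlu cells on the left and for αGlu against Ctr in BSA and PA on the right, on one scale. Cpt1a sits at 2.18 and 2.25 in the PA comparisons, and every interval on the right except that of Crot in BSA includes 0.

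Because members rose by unequal amounts, the ratios between their transcripts within a library changed, and such ratios do not depend on how libraries are scaled. The ratio of Cpt1a to Cpt2 in TPM was 0.238 ± 0.0540 in Ctr BSA and 0.738 ± 0.0401 in Ctr PA (SD, n = 6 each). The log2 difference was 1.66 (1.45 in batch 1 and 1.87 in batch 2) in Ctr cells and 1.67 in αGlu cells. The ratio of Slc25a20 to Cpt2 went from 0.117 ± 0.0177 to 0.222 ± 0.0177, a log2 difference of 0.93 in Ctr cells and 0.85 in αGlu cells. Cpt1a and Cpt1c were near parity in Ctr BSA (ratio 1.10 ± 0.299) and stood at 5.98 ± 1.05 in Ctr PA, a log2 difference of 2.47 in Ctr cells and 2.49 in αGlu cells. In these 6 comparisons the groups did not overlap, and the two-sided exact permutation p was 0.00216, the smallest that 6 libraries against 6 allow (adjusted p = 0.00577 over 16 tests). The ratio differences restate the fold changes of the single genes given above, so these p-values are not separate support for them. The permutation did not take the batches into account. The ratio of Crot to Crat was 2.25 ± 0.765 in Ctr BSA and 2.42 ± 0.415 in Ctr PA, with overlapping groups (exact permutation, adjusted p = 0.838). None of the 8 comparisons of ratios between αGlu and Ctr passed the threshold (exact permutation, adjusted p = 0.838 for each).

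**Figure D3:**
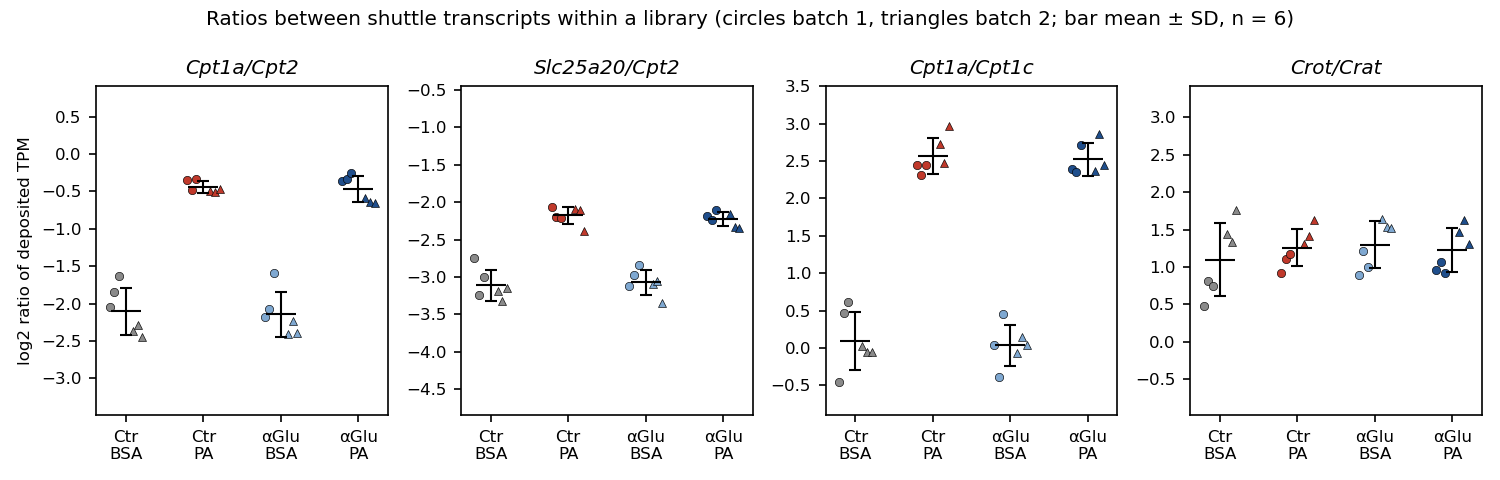
Log2 ratios of deposited TPM within each library for 4 pairs of members, by group, each panel spanning the same height in log2 units, with circles for batch 1, triangles for batch 2 and bars for the mean ± SD of 6 libraries. The ratios of Cpt1a to Cpt2, Slc25a20 to Cpt2 and Cpt1a to Cpt1c are higher in every PA library than in any BSA library of the same ASO, and the ratio of Crot to Crat is not.

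The effect of blocking 5'tRF-Glu(CTC) was asked without PA, with PA and averaged over both, and as a difference between the PA responses. These comparisons share libraries with each other and with the PA comparisons. None of the 8 members was called in αGlu against Ctr in BSA or in PA by edgeR, where 0% of all genes were called, nor by DESeq2, which called 8 and 30 genes of the table. At an unadjusted p below 0.05, edgeR gave 1 member in BSA and 0 in PA, and 2.90% and 3.38% of all genes. In PA the log2 fold change of Cpt1a was 0.03 (95% interval -0.13 to 0.18), that of Slc25a20 0.01 (-0.16 to 0.18), that of Aldh9a1 0.05 (-0.05 to 0.15) and that of Cpt2 0.06 (-0.04 to 0.15). In fold terms, the interval of Cpt1a runs from 0.914 to 1.13. The 1 member with a low unadjusted p was Crot in BSA, with 34.7 to 55.4 CPM in Ctr and 40.7 to 54.3 CPM in αGlu. The groups overlapped (log2 fold change 0.13, 95% interval 0.01 to 0.25, unadjusted p = 0.0319, adjusted p = 1 in edgeR), and the value was 0.24 in batch 1 and 0.02 in batch 2. Averaged over BSA and PA, no member was called either (edgeR, 0 at an unadjusted p below 0.05), against 0.239% of all genes, and member values ran from -0.07 for Slc22a5 to 0.07 for Crot.

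The PA response of αGlu cells minus that of Ctr cells was 0.07 for Cpt1a (95% interval -0.16 to 0.29), -0.02 for Slc25a20 (-0.27 to 0.22), 0.02 for Aldh9a1 (-0.12 to 0.17) and 0.07 for Cpt2 (-0.07 to 0.21) on the log2 scale. For the others it was -0.12 for Crot (-0.29 to 0.04), 0.11 for Crat (-0.08 to 0.30), 0.07 for Cpt1c (-0.28 to 0.42) and -0.06 for Slc22a5 (-0.29 to 0.18). No member and 0% of all genes were called (edgeR, adjusted p = 0.999 for each member; DESeq2 also called 0 genes), and 0 members and 2.09% of all genes had an unadjusted p below 0.05. In fold terms, the interval of the Cpt1a difference runs from 0.896 to 1.23. These intervals are not adjusted for the number of members, and the block of the fragment could not be checked in these libraries.

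The level of most members differed between the batches. Batch 2 against batch 1 called 6 of the 8, 3 higher and 3 lower, against 51.5% of all genes. Aldh9a1 (log2 difference 0.36), Crot (0.35) and Cpt2 (0.12) were higher in batch 2, and Cpt1a (-0.21), Cpt1c (-0.27) and Crat (-0.20) were lower. For Slc25a20 (-0.01) and Slc22a5 (0.04) no difference was called. All 10 beta-cell markers were higher and all 10 acinar markers lower in batch 2, with median log2 differences of 0.54 and -4.37, and their part in the members' batch differences was not tested. The 4 called members lay above 0 in both batches in their PA response. For batches 1 and 2 in turn, Ctr cells gave log2 fold changes of 2.01 and 2.35 for Cpt1a, 1.40 and 1.51 for Slc25a20, 1.43 and 1.35 for Aldh9a1, and 0.56 and 0.48 for Cpt2. In αGlu cells they were 2.18 and 2.32, 1.37 and 1.49, 1.30 and 1.53, and 0.57 and 0.60 in the same order of genes. Averaged over ASOs, the Cpt1a response was larger by 0.24 in batch 2 (95% interval 0.03 to 0.45, unadjusted p = 0.0268), which did not pass after adjustment (adjusted p = 0.725, edgeR). Without S6 of αGlu BSA the difference was 0.15 (adjusted p = 0.907, edgeR). No member was called in that comparison, against 0.0565% of all genes. At an unadjusted p below 0.05 there was 1 of the 8 members, Cpt1a, against 6.18% of all genes. Crot in Ctr cells was 0.27 in batch 1 and 0.02 in batch 2, and in a fit of batch 1 alone it was called (0.27, adjusted p = 0.0356, edgeR).

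**Figure D4:**
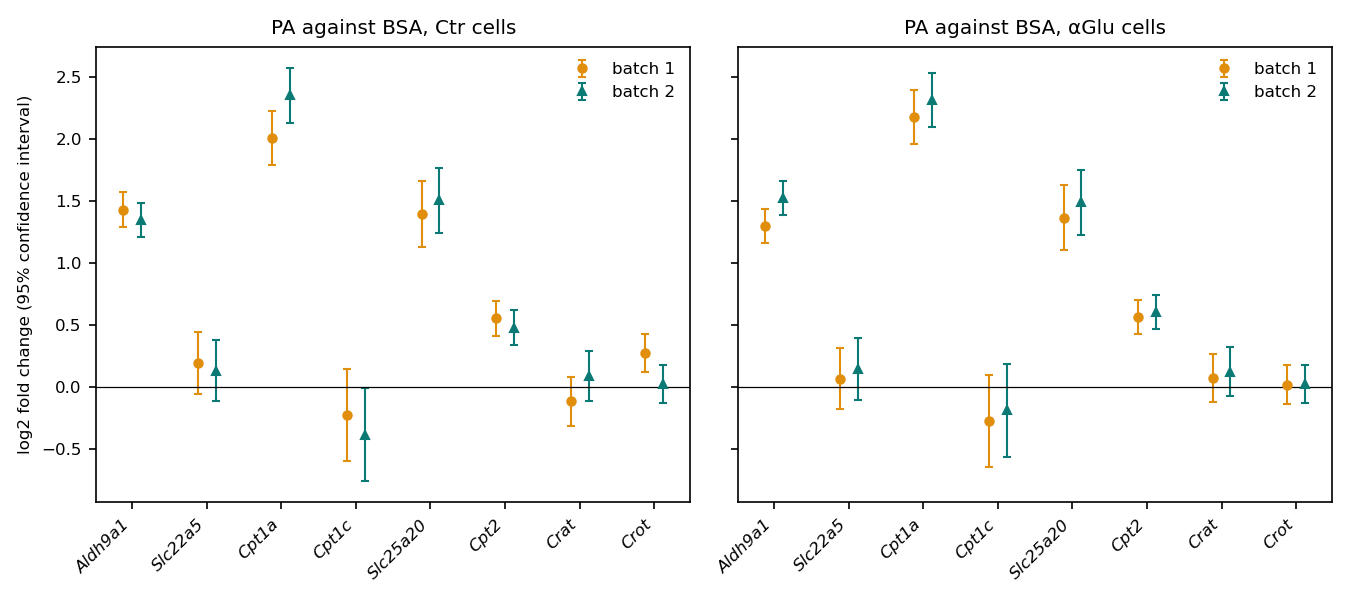
Log2 fold changes of PA against BSA with 95% confidence intervals in each batch, from one fit with a coefficient for every group in every batch (3 libraries each), for Ctr cells on the left and αGlu cells on the right. Cpt1a, Slc25a20, Aldh9a1 and Cpt2 lie above 0 with their whole interval in both batches and both ASOs.

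Across the 24 libraries, with batch means removed from log2 CPM, Cpt1a, Slc25a20 and Aldh9a1 had each other among their 3 genes of most alike profile. Cpt2 was not among the 3 of any of them. For Cpt1a the 3 genes of highest Pearson r were Aldh9a1 (0.985), Cyb5r1 (0.983), a cytochrome b5 reductase, and Slc25a20 (0.981). For Slc25a20 they were Aldh9a1 (0.983), Cpt1a (0.981) and the lysophospholipid acyltransferase Lpcat3 (0.979), and for Aldh9a1 they were Cpt1a, Slc25a20 and the peroxisomal membrane protein gene Pxmp4 (0.982). For Cpt2 they were the carboxypeptidase Scpep1 (0.974), the sorbitol dehydrogenase Sord (0.974) and Slc25a20 (0.973). The other members had lower best values: Resp18 for Cpt1c (0.866), Dynlt3 for Crot (0.786), Gm7628 for Slc22a5 (0.755) and Tsta3 for Crat (0.677). The points share the 2 treatments, and once group means were removed too, the 28 pairs of members had r from -0.50 to 0.61 with a median of 0.13. Of the pairs named above, Cpt1a then had -0.34 with Aldh9a1 and 0.16 with Slc25a20. Slc25a20 had 0.34 with Aldh9a1 and 0.46 with Cpt2.

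The genes around the shuttle were read from lists written by hand, given as counts of members called by edgeR in PA against BSA in Ctr cells. Over all genes tested the shares were 15.5% higher and 14.5% lower, and the counts for the first pair of lists, the carnitine system and malonyl-CoA, are close to what those shares give. Of the other genes of the carnitine system, 8 were tested, with 1 higher, 2 lower and a median log2 fold change of 0.14. Slc22a4, a carnitine and ergothioneine transporter, rose by 0.57 (adjusted p = 0.0181), a call lost without S15 (adjusted p = 0.0577). The mitochondrial carriers Slc25a29 and Slc25a45 had -0.49 (adjusted p = 0.00624) and -1.20 (adjusted p = 0.00623), and in αGlu cells -0.29 and -0.71, which were not called, while Slc22a4 rose there by 0.82. Cpt1b, the muscle-type isoform, was at 1.06 ± 0.568 TPM in Ctr BSA and 1.42 ± 0.814 TPM in Ctr PA and was not called (adjusted p = 0.615).

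Of 10 genes that set malonyl-CoA, the inhibitor of Cpt1a, 1 was higher and 2 were lower, with a median of 0.02. Mlycd, which breaks malonyl-CoA down, rose by 0.32 (adjusted p = 0.0110, edgeR). Prkab1, a regulatory subunit of AMPK, had -0.25 (adjusted p = 0.00251), and Stk11, the kinase LKB1 upstream of AMPK, had -0.20 (adjusted p = 0.0263), lost when S1, S7, S17 or S23 was left out (adjusted p up to 0.0802). Acaca and Acacb, the acetyl-CoA carboxylases that make malonyl-CoA, had 0.08 (adjusted p = 0.303) and 0.25 (adjusted p = 0.410) and were not called. Of 16 genes of fatty-acid uptake and activation, 7 were higher and 2 lower (median 0.10), among them Fabp3, a cytosolic fatty-acid binding protein (1.15, adjusted p = 5.62e-07), and the acyl-CoA synthetases Acsl4 (0.68) and Acsl5 (0.34).

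Of 25 genes of mitochondrial β-oxidation, 14 were higher and 1 lower (median 0.32). Acat1, an acetoacetyl-CoA thiolase, rose by 1.11 (adjusted p = 2.07e-11), Acadvl, the very-long-chain acyl-CoA dehydrogenase, by 0.86 (adjusted p = 5.68e-09) and Acaa2, a 3-ketoacyl-CoA thiolase, by 1.56 (adjusted p = 6.09e-09), all by edgeR. These values lie between those of Cpt2 and Cpt1a. Of 19 tested peroxisomal genes 9 were higher and 0 lower (median 0.19), with Phyh at 0.55 and Ehhadh at 0.54. Of 14 genes of PPARs, RXRs and their cofactors 4 were higher and 2 lower (median -0.04), with Ppargc1a, the PPAR coactivator PGC-1α, at 0.93 and Pparg at 0.62. Of 12 other PPAR target genes 7 were higher and 1 lower (median 0.95), with Angptl4, a lipoprotein lipase inhibitor, at 3.37, the lipid droplet coat gene Plin2 at 1.42 and the pyruvate dehydrogenase kinase Pdk4 at 1.26.

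In αGlu cells 14.4% of all genes tested were called higher and 14.2% lower. The same lists gave 1 higher and 0 lower for the carnitine system, 2 and 1 for malonyl-CoA, and 7 and 0 for uptake and activation. They gave 15 and 0 for mitochondrial and 12 and 0 for peroxisomal β-oxidation, 3 and 1 for PPARs and cofactors, and 7 and 1 for PPAR targets. The 1 lower gene of the malonyl-CoA list, Prkab1, lost its call when any of 12 libraries was left out (adjusted p up to 0.116, edgeR). None of the genes on these 7 lists was called in any comparison of αGlu with Ctr.

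**Figure D5:**
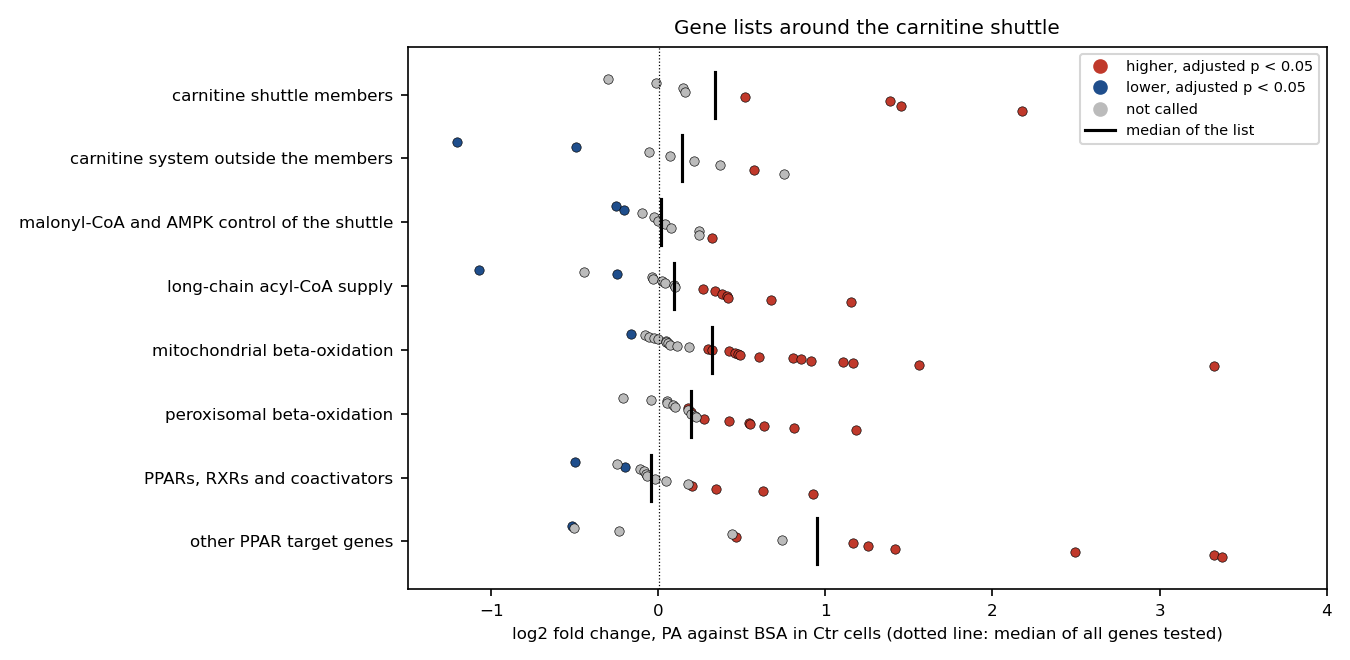
Log2 fold changes of PA against BSA in Ctr cells for each tested gene of the carnitine shuttle set and of 7 lists around it (1 point a gene, some genes on 2 lists), coloured by the edgeR call, with a bar at the median of each list and a dotted line at the median of all genes. The shuttle set has 4 called points from 0.52 to 2.18 and 4 that were not called.

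Markers of other cell types moved with PA in the same libraries. Over all genes tested, 14.5% were called lower and 15.5% higher in Ctr cells. The shares in αGlu cells were 14.2% lower and 14.4% higher. In Ctr cells 7 of 8 tested fibroblast and stellate markers were lower (median log2 fold change -2.82), their sum running from 139 to 570.2 CPM in Ctr BSA and from 12.5 to 67.8 CPM in Ctr PA. Macrophage and haematopoietic markers were lower for 9 of 12 (median -2.17), with sums of 80.8 to 394 and 85.9 to 131 CPM, and acinar markers for 6 of 10 (median -1.06), with sums of 425 to 22700.3 and 222 to 8274 CPM. Ductal markers were lower for 3 of 8, with sums of 425 to 755 and 355 to 683 CPM, and alpha, delta and PP cell markers for 3 of 9, with sums of 11249 to 24127 and 10204 to 26347 CPM. Endothelial and Schwann and glia markers had no calls. Of 10 beta-cell markers 3 were higher and 3 lower, and their sums ran from 87357 to 135214 CPM in Ctr BSA and from 84236 to 131965 CPM in Ctr PA. No marker list had a gene at 0 in every library of a group. In αGlu cells 5 fibroblast, 1 macrophage, 6 acinar, 3 ductal, 1 islet endocrine and 2 beta-cell markers were lower and 3 beta-cell markers higher. The part of the other cell types in the rises of Cpt1a, Slc25a20, Aldh9a1 and Cpt2 was not tested. Averaged over BSA and PA, 6 of 9 Schwann and glia markers were lower in αGlu than in Ctr cells (median -2.73), against 0.182% of all genes. They were S100b (-2.48), Cdh19 (-3.24), Ngfr (-2.73), Sox10 (-2.98), Foxd3 (-3.08) and Gfap (-3.88), with adjusted p from 0.0151 to 0.0221 (edgeR). No member was called lower. Without the batch term, and in either batch alone, that comparison called 0 genes, these 6 included.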

How the data were processed

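Reads had been turned into counts by the authors; the submitters' processing notes name the QIAGEN RNA-seq Analysis Portal 5.1 and genome build GRCm38. For the annotation, aligner and strand setting, the sources used here give nothing. Deposited counts of reads on exons were tested, with empty cells read as 0. TPM values, normalized by the authors for transcript length and depth, were used only for levels between genes and for ratios. The 48 RPKM and CPM columns were not used, and 1 line without a gene held 0 counts. CPM in the text was computed from the counts. Of the gene identifiers, 41474 were found in GENCODE vM21, the source of the coordinates.

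Genes passing filterByExpr (minimum count 10) were fitted in R 4.3.3 with edgeR 4.0.16 (TMM, quasi-likelihood test, terms for group and batch, all 24 libraries) and limma 3.58.1. A second fit had a coefficient for each group in each batch. Ratios were compared by exact permutation, enumerated in Python 3.11.15 with NumPy 2.4.6. The fit was tested on simulated data first. No 2 libraries of a group agreed within sampling noise (chi-square per degree of freedom at least 6.29 over 60 pairs). Reads carry no molecular identifiers, so floors of 3 counts cover counting error only. The study's methods name mice of both sexes and RNA of integrity number above 7.

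Alternatives were DESeq2 1.42.0, upper-quartile scaling, no filter, a filter of 10 counts in 12 libraries, no batch term, only the 2 groups compared, each batch alone, the threshold of the study, ratios of counts, and leaving out each library. The members, lists and tests were chosen with earlier results of these data known. The text names every member, the 3 genes of smallest p in each pathway list, list genes called between ASOs and the genes most alike in profile. Cpt1b, Acaca and Acacb were added for their role after their values were seen, marker lists are given as counts, and some genes that the rule names are not reported here.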

Additional observations from a re-analysis of the deposited data

Results flagged for a closer look

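In 3 of the 32 sets of 6 libraries (8 tested members in 4 groups), 1 library lay far from the other 5, measured as its gap to the nearest other library over the range of the group. Chance alone gives about 1 such set in 20. Cpt1c was at 38.4 CPM in the library S1 of Ctr BSA, while the other 5 ran from 20.3 to 23.7 CPM. The same library had 14.3 TPM of Cpt1c, the highest of its group too, and the smallest total of all libraries (18214719 reads). Cpt1c was also high in the library S2 of αGlu BSA, at 34.008 CPM with the others from 22.1 to 25.5 CPM. Cpt1a was at 47.6 CPM in the library S6 of αGlu BSA, with the others from 29.1 to 35.3 CPM, which is still far below every PA library. All 3 libraries belong to batch 1. None of the 8 members, tested for a difference between the ASOs and between the batches in their PA response, passed in either (16 tests).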

How the results depend on the processing

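Cpt1a, Slc25a20, Aldh9a1 and Cpt2 were called higher in both PA comparisons under DESeq2, both other filters, upper-quartile scaling, no batch term, the 2 groups alone, each batch alone and every omission of 1 library. Under the threshold of the study Cpt2 was not called. Over the alternatives other than omissions the log2 fold change in Ctr cells ran from 2.00 to 2.35 for Cpt1a, 1.38 to 1.51 for Slc25a20, 1.35 to 1.42 for Aldh9a1 and 0.48 to 0.55 for Cpt2. Of the members not called in Ctr cells, Crot, Cpt1c and Slc22a5 passed under the settings given beside their values, so 4 to 6 members were called when 1 library was left out. No called member changed sign. The 6 members called between batches became 0 under the threshold of the study. Leaving out each library changed no call for the ratios. Counts in place of TPM could not change a ratio's difference by more than rounding, since gene length cancels, and 3 libraries against 3 within a batch cannot pass a test. There the Crot to Crat ratio in Ctr cells differed by 0.39 in batch 1 and -0.07 in batch 2.

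The number of all genes called moved more. In PA against BSA it was 4772 in Ctr and 4543 in αGlu cells, and 2312 and 2271 without the batch term, 2033 and 1644 in batch 1 alone, 1833 and 1902 in batch 2 alone, and 941 and 886 under the threshold of the study. Leaving out 1 library gave 4201 to 4902 and 3936 to 5161. With its own tool, the study reported more genes at its threshold in Ctr cells, and between the ASOs, than were found here. For αGlu against Ctr in BSA, 0 became 8 with DESeq2, 125 under the threshold of the study and 0 to 9 on leaving out 1 library. In PA, 0 became 30 with DESeq2, 3 without a filter, 6 with the 2 groups alone, 6 in batch 2 alone, 150 under the threshold of the study and 0 to 3 on leaving out 1 library. Averaged over BSA and PA, 38 became 90 with DESeq2, 81 without a filter, 0 without the batch term, 0 in each batch alone, 117 under the threshold of the study and 27 to 66 on leaving out 1 library (60 without S13 and 66 without S17). For the difference in PA response between ASOs, 0 became 104 under the threshold of the study. Between batches, 8197 became 1015 under that threshold. For the PA response by batch, 9 became 42 with DESeq2, 237 under that threshold and 5 to 13 on leaving out 1 library (5 without S22 or S24). The causes were not tested. No member was among the calls of αGlu against Ctr by DESeq2.

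No paired analysis was possible because each library has its own number, the groups share none, and the labels do not show which libraries came from one preparation. Bbox1 had too few reads to be tested.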
